A study of Mus musculus with 6 samples.

Results

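The genes described are those of the constitutive proteasome, taken by name from the array's annotation. A gene was taken when its name began with Psma, Psmb, Psmc, Psmd, Psme, Psmf or Psmg followed by a digit, leaving out the interferon-inducible Psmb8, Psmb9, Psmb10, Psme1 and Psme2. This gave 40 of the 27668 genes on the array, measured by 62 probes, and each gene was represented by its brightest probe. All 40 were among the 21339 genes tested. Every array showed 39 of them well above background, Psma8 being the exception with 5 of 6 arrays. The arrays compared 2 lines of S49, a mouse T lymphoma line grown in suspension. Neo is the parental line. MR 4-25 is labelled as mannitol recovered; mannitol is a sugar alcohol added to medium to make it hyperosmotic. Both were kept in RPMI-1640 with fetal calf serum and labelled untreated. Each line had 3 samples with 1 Cy3 array each. Slide 1 held replicates 1 and 2 of each line, and slide 2 held replicate 3 of each.

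The proteasome is the ATP-dependent protease that degrades ubiquitin-tagged proteins. Its 20S core is a barrel of alpha rings, which gate the entrance, and beta rings, which hold the active sites, and the 19S particle at the ends binds ubiquitin chains, unfolds the substrate with a ring of ATPases and removes the ubiquitin. In lymphocytes interferon can exchange the catalytic beta subunits for the immunoproteasome subunits that were left out here, and a shortage of proteasome activity is known to raise the transcription of the subunit genes together through the factor Nfe2l1.

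The name rule and the label differed for a few genes. Psmc3ip, named for its binding to Psmc3, is a recombination protein and not a subunit. The gene that the array calls Psme2b-ps is named Psme2, the beta subunit of the PA28 activator, by the RefSeq table through its accession. The array holds Psmg1, Psmg2, Psmg3 and Psmb11 under older names, which the rule does not take; their values are given on their own. The remaining 38 genes belong to the 20S core (15), the 19S particle (17), the assembly chaperones (3) and the activators and inhibitor (3).

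No proteasome gene differed between the lines past the test. With limma and an adjusted p of 0.05, 0 of 40 were higher and 0 lower in MR 4-25, against 144 genes higher (0.675%) and 119 lower (0.558%) of all 21339, together 1.23%, so that a count of 0 among 40 is near the background. At an unadjusted p under 0.05, 3 were higher (Psmd4, Psmd5 and Psmb4) and 4 lower (Psmd6, Psmd12, Psmc3 and Psmc5), against 5.92% and 7.33% of all genes. The 2 lines did not overlap for 6 genes higher and 6 lower in MR 4-25, against 24.3% of all genes (11.2% higher and 13.1% lower). Of the 40 genes, 36 were among the 5335 whose signal was in the brightest 25%. Of those 5335, 36.7% did not overlap, against 12 of the 40. At an unadjusted p under 0.05 (limma) the counts were 1051 of 5335 and 7 of 40. Neither share of the 40 was above that of the brightest genes. The smallest difference that passed over all genes was 1.01 on the log2 scale, and the differences of the 40 genes ran from −0.56 to 0.90, so the test made no call in their range. With array quality weights 3 of the 40 passed (Psmd4, Psmd5 and Psmd12) and 2014 of all genes. With the replicate number as a block 0 of 40 and 1 of all genes passed, and leaving out 1 array gave 0 of 40 and 0 to 223 of all genes.

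Differences were small and closely bounded. The median absolute log2 difference was 0.14 over the 40 genes, 0.37 over all genes and 0.25 over the 5335 genes whose signal was in the brightest 25%, to which 36 of the 40 belong. The 95% interval lay inside a 2-fold difference in both directions for 36 of 40 genes (90.0%), against 38.7% of all genes and 77.6% of the brightest 25%. The genes whose interval went beyond 2-fold were Psma8, Psma5, Psme3 and Psmd5. The median SD within a line was 0.16 for the 40 genes, 0.39 for all genes and 0.19 for the brightest 25%.

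**Figure D1:**
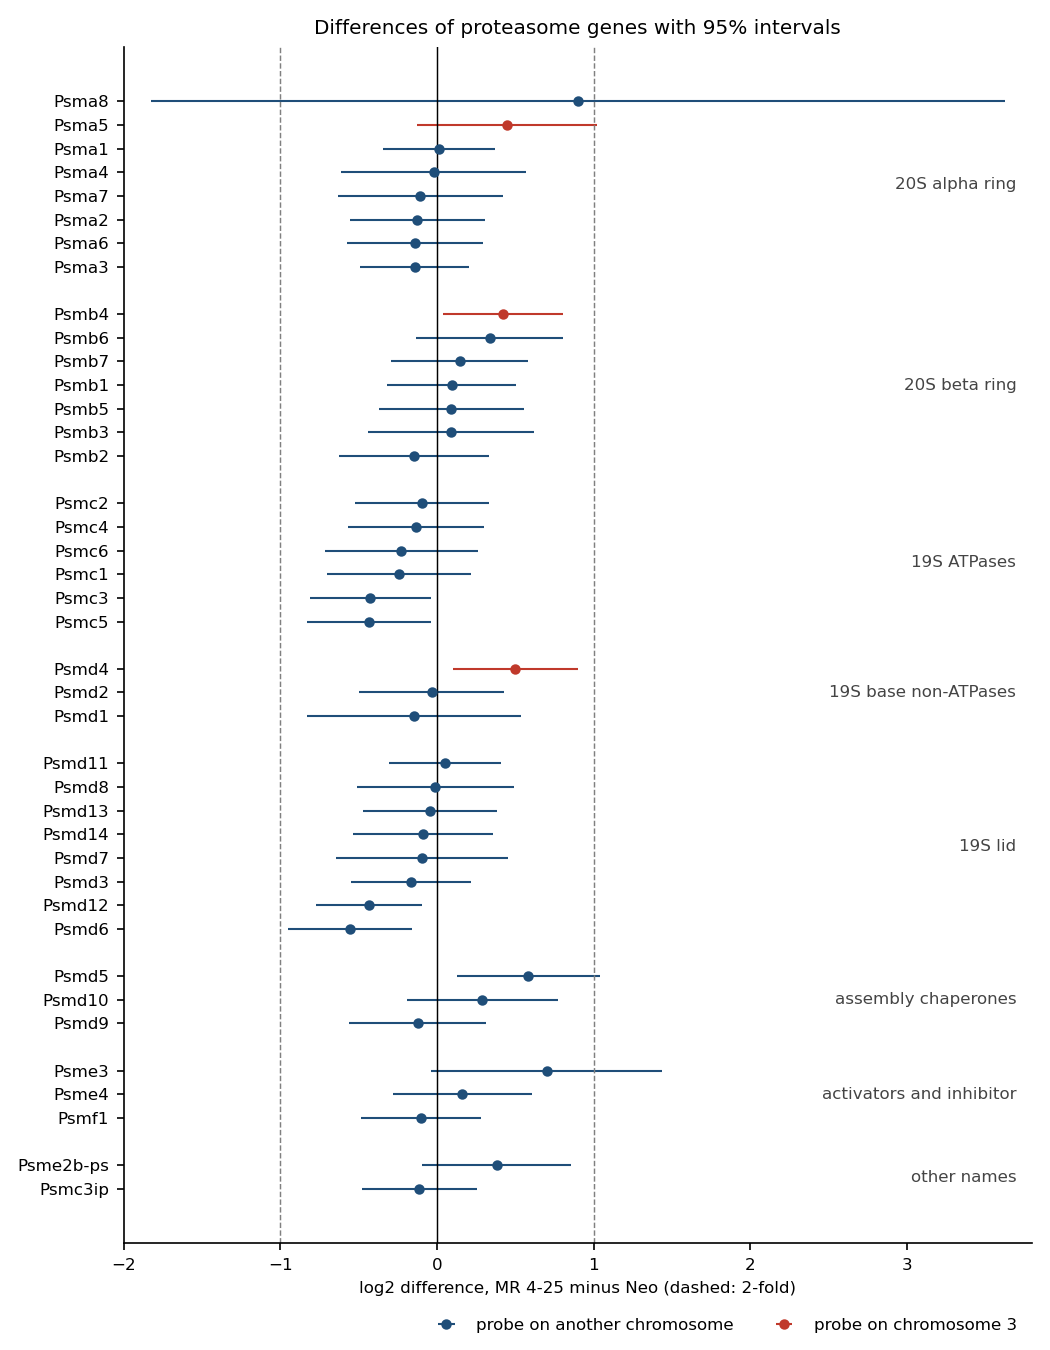
Log2 difference, MR 4-25 minus Neo, of each of the 40 genes with its 95% interval (limma, n = 3 arrays per line), grouped by role, with dashed lines at 2-fold and genes of chromosome 3 in red. All 6 ATPase genes lie left of 0, 6 of 7 beta ring genes right of 0, and 36 intervals lie inside the dashed lines.

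**Figure D2:**
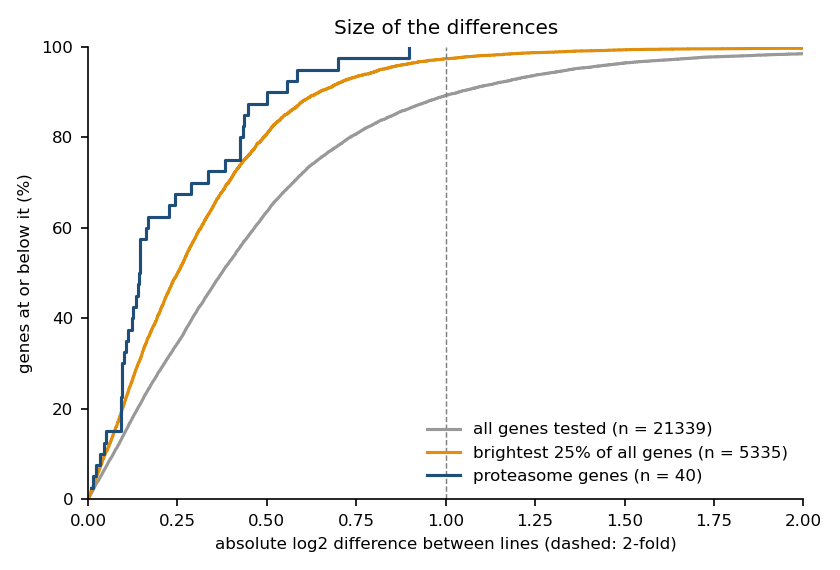
Cumulative share of genes (y axis, percent) at or below an absolute log2 difference (x axis) for the 40 proteasome genes, the brightest 25% of genes and all genes tested. The medians are 0.14, 0.25 and 0.37, and all 40 proteasome genes lie below the 2-fold line.

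As a group the genes showed no common direction. The median difference was −0.07, with 16 genes positive and 24 negative, and it was −0.10 on slide 1 and 0.10 on slide 2. The median of all genes tested was 0.01 (slide 1 −0.02, slide 2 0.09). That of the brightest 25% was −0.04 (slide 1 −0.06, slide 2 0.01), with 2881 of 5335 negative. The sign was the same on both slides for 28 of the 40 genes. The median without MR 4-25 replicate 1 was 0.01, of the opposite sign.

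Values below are log2 signals relative to the array's 75th percentile, and differences are MR 4-25 minus Neo. A level is that of one probe and is compared only with the same probe on other arrays. The array of MR 4-25 3 was dimmer than the rest, with a 75th percentile of 521 intensity units and 61.3% of probes well above background, against 844 to 988 and 69.9% to 76.3%. Correlations between arrays over all genes were 0.888 to 0.984. Whether the samples were separate cultures is not stated, so the p-values cover only the spread among them, which may be technical, and with a single line of each kind, recovery and other differences of these lines cannot be told apart. T cell markers (7 of 7) were well above background on all arrays, with summed log2 levels of 7.996 to 8.20 in Neo and 7.93 to 8.05 in MR 4-25. The summed myeloid markers (3 of 3 above background) were −0.65 to −0.45 and 0.01 to 0.30, the B cell markers (2 of 3 above on all arrays) −0.95 to −0.76 and −0.70 to 0.00, the fibroblast markers (3 of 3) −1.30 to −0.38 and −0.39 to 0.02, and the erythroid markers (1 of 2 on the array) −2.68 to −0.54 and −0.86 to −0.40. The myeloid markers did not share a direction. Lyz2 and Csf1r had positive differences (1.06 and 0.27) and Itgam a negative one (−0.43), and 0 of 3 passed the test. The part of all these markers in the differences below was not tested.

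The ATPases of the 19S particle, Psmc1 to Psmc6, unfold the substrate and feed it into the core. All 6 had negative differences, from −0.44 to −0.09 with a median of −0.24, and 0 of 6 passed the test. The median was −0.30 on slide 1 and −0.27 on slide 2. Each of the 6 stayed negative under all 14 alternative settings, with medians of −0.46 to −0.21. Several of these, among them the blocks and the deposited values, left the median at −0.24 and could not change a sign. Each also stayed negative when any 1 array was left out, with medians of −0.32 to −0.18. On slide 2 alone, however, Psmc2 and Psmc4 were positive, at 0.20 and 0.12.

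Psmc5 gave 3.90, 4.10 and 3.97 in Neo 1 to 3 and 3.53, 3.71 and 3.42 in MR 4-25 1 to 3. Its 3 MR 4-25 arrays all lay below its 3 Neo arrays, by −0.44 ± 0.16 on average (SE, n = 3 per line, limma adjusted p = 0.331). By slide this was −0.38 and −0.55. Its dimmer probe differed by −0.15 ± 0.17 (SE). Psmc3 was alike, with 3.81, 3.97 and 3.85 in Neo and 3.45, 3.59 and 3.32 in MR 4-25. The lines did not overlap, and the difference was −0.43 ± 0.15 (SE, limma adjusted p = 0.329). Psmc1 was also apart, from 4.64 ± 0.07 to 4.40 ± 0.25 (mean ± SD, n = 3), with MR 4-25 1 the lowest array at 4.12. Psmc6 (−0.23), Psmc4 (−0.13) and Psmc2 (−0.09) overlapped between lines.

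The base of the 19S particle also holds the scaffold proteins Psmd1 and Psmd2 and the ubiquitin receptor Psmd4, which binds ubiquitin chains through its interaction motifs. Psmd4 stood at 4.74, 4.72 and 4.76 in Neo and at 5.11, 5.45 and 5.16 in MR 4-25. The Neo arrays had an SD of 0.02 and all lay below the MR 4-25 arrays. The difference was 0.50 ± 0.16 (SE, 95% interval 0.10 to 0.90, limma adjusted p = 0.269). Slide 1 gave 0.55 and slide 2 gave 0.40. A second, much dimmer Psmd4 probe gave −0.38 ± 0.35 (SE), with MR 4-25 3 the lowest array at −2.26, and with the mean over probes the gene's difference was 0.06. Psmd1 was 3.095, 2.85 and 3.21 in Neo and 2.59, 2.73 and 3.41 in MR 4-25, so the lines overlapped. Its difference was −0.15 ± 0.27 (SE) and became 0.01 without MR 4-25 replicate 1. Psmd2 differed by −0.03.

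The lid of the 19S particle removes ubiquitin chains through the metalloprotease Psmd14, held in a horseshoe of scaffold subunits. Of its 8 genes that the name rule takes, 7 had a negative difference and 1 a positive one, with a median of −0.09 and 0 past the test. Without MR 4-25 replicate 1 the median was 0.01 and 3 of 8 were negative, so the count for the lid rests on that array.

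Psmd6, a scaffold subunit, had the lowest difference of the 40 genes. It gave 4.17, 4.49 and 4.30 in Neo and 3.72, 3.84 and 3.72 in MR 4-25. All 3 MR 4-25 arrays lay below all 3 Neo arrays. The difference was −0.56 ± 0.16 (SE, 95% interval −0.95 to −0.16, limma adjusted p = 0.225), with −0.55 and −0.58 on the slides. Psmd12, a further scaffold subunit, had the smallest SE of the 40 genes, with 5.29, 5.28 and 5.31 in Neo and 4.92, 4.87 and 4.79 in MR 4-25. Here too the lines were apart, by −0.43 ± 0.13 (SE, limma adjusted p = 0.257), and its 2 dimmer probes gave −0.38 ± 0.14 and −0.55 ± 0.25 (SE). The deubiquitinase Psmd14 differed by −0.09, and Psmd3, Psmd7, Psmd13 and Psmd8 by −0.17, −0.10, −0.04 and −0.01, all with overlapping lines. Psmd11 was 5.26, 5.26 and 5.33 in Neo and 5.33, 5.23 and 5.44 in MR 4-25. Its difference of 0.05 ± 0.14 (SE) took the other sign with array quality weights (−0.02), with normexp background correction (−0.11) and without MR 4-25 replicate 3 (−0.00).

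Probes and promoters of genes with differences in both directions are printed here to show which part of the transcript was read and which letters precede the start. The probes, in lower case, are 60 bases long, were placed on build mm7 by the array's annotation, and read as an open frame throughout; that of Psmd4 spans more genome than its own length.

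Psmd6 probe, chr14:11933069-11933128, minus strand: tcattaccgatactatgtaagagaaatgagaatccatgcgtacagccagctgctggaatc
Psmd4 probe, chr3:94907958-94908556, minus strand: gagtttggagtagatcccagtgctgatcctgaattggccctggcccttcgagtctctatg

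The promoters run from 250 bases before to 50 after the annotated start, from RefSeq on GRCm38.p6, with matches to the ETS-type motif CCGGAAG or to TGACNNNGC, the core of the antioxidant response element read by Nfe2l1 and Nfe2l2, in capitals on either strand.

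Psmd6 promoter, chr14:14120896-14121195, minus strand: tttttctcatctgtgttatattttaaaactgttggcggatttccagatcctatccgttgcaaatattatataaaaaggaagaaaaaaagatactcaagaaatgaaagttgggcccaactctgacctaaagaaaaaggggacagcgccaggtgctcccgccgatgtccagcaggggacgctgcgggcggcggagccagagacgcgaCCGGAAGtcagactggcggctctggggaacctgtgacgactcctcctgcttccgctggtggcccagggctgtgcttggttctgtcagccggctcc
Psmd12 promoter, chr11:107479278-107479577, plus strand: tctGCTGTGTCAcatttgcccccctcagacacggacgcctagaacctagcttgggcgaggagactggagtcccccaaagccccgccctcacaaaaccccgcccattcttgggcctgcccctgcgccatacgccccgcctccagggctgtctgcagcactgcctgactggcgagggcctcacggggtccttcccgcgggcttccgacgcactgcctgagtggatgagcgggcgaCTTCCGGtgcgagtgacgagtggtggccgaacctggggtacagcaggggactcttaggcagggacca
Psmd4 promoter, chr3:95042565-95042864, minus strand: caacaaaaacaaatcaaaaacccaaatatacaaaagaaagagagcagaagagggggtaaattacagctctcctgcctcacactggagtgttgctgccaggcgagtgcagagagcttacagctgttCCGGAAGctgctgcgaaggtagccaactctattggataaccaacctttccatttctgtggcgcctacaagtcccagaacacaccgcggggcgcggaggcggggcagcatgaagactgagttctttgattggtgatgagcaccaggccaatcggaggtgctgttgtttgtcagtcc
Psmb4 promoter, chr3:94886909-94887208, minus strand: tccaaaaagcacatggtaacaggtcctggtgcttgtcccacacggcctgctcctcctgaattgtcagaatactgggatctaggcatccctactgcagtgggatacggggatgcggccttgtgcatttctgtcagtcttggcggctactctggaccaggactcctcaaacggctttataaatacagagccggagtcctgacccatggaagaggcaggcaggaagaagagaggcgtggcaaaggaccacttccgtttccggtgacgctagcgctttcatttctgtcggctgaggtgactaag

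A promoter was found for 32 of the 40 genes by symbol. CCGGAAG was in 13 of them (40.6%), against 9.93% of 27025 genes with a promoter in the table. TGACNNNGC was in 6 of 32 (18.8%), against 13.99% of all genes, and CCAAT in 13 of 32 (40.6%), against 41.06%. Both strands were searched, and 2 pairs of matches to different motifs overlapped. Psmd6 has CCGGAAG at position −45 from the start and Psmd4 at −125. In Psmd12 it lies at −17 on the opposite strand, with TGACNNNGC at −247, and the Psmb4 window holds neither motif. The 13 genes with CCGGAAG had a median difference of −0.09 (9 of 13 negative) and the 19 without it −0.02 (11 of 19 negative). A match is a string of letters and not a measured binding site.

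The beta ring carries the peptidase sites in Psmb5 (chymotrypsin-like), Psmb6 (caspase-like) and Psmb7 (trypsin-like). Of 7 beta genes, 6 had a positive difference and 1 a negative one, with a median of 0.09, 0.03 on slide 1 and 0.38 on slide 2, and 0 passed the test; with normexp background correction 5 of 7 were negative and the median was −0.08, against 0.34 over all genes under that setting. The slides therefore differed in size for this ring, and the slide 2 value rests on 1 array of each line, MR 4-25 3 being the dim one.

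Psmb4, a structural beta subunit, had the largest difference in the ring. Neo gave 6.34, 6.50 and 6.20 and MR 4-25 gave 6.80, 6.72 and 6.79. Every MR 4-25 array lay above every Neo array, by 0.42 ± 0.15 on average (SE, 95% interval 0.04 to 0.81, limma adjusted p = 0.328). Psmb6 also did not overlap, with 5.48, 5.64 and 5.53 in Neo and 5.79, 5.70 and 6.17 in MR 4-25. MR 4-25 3 was its highest array, and the difference of 0.34 ± 0.18 (SE, limma adjusted p = 0.542) split into 0.18 (slide 1) and 0.64 (slide 2). The other peptidases, Psmb7 and Psmb5, differed by 0.15 and 0.09, and the structural subunits Psmb1 and Psmb3 by 0.09 each. Psmb2 was 2.09, 2.35 and 1.92 in Neo and 1.97, 2.15 and 1.79 in MR 4-25, so the lines overlapped, with −0.15 ± 0.19 (SE).

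The alpha ring forms the gate and the docking surface for the 19S particle. Among its 8 genes 3 were positive and 5 negative, with a median of −0.06 and 0 past the test. The median was 0.02 with array quality weights. Without Psma8 it was −0.11 in the main setting, with 2 genes positive and 5 negative. Of the 7 alpha genes above background on all arrays, Psma5 had the largest difference. Neo gave 6.66, 6.80 and 6.49 and MR 4-25 gave 6.81, 7.47 and 7.00. The lines were apart by a narrow margin, and MR 4-25 2 was the highest array. The difference was 0.45 ± 0.23 (SE, limma adjusted p = 0.49975), and 0.26 without MR 4-25 replicate 2. Psma3, at 4.40 ± 0.04 in Neo and 4.26 ± 0.09 in MR 4-25 (mean ± SD, n = 3), was the other alpha gene whose lines did not overlap, with −0.14 ± 0.14 (SE). Psma1, Psma4, Psma7, Psma2 and Psma6 overlapped, with 0.01, −0.02, −0.11, −0.13 and −0.14.

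Psma8 is the alpha subunit of the testis, where it replaces Psma7 in the spermatoproteasome. Its signal was near background, at −5.43, −6.19 and −3.60 in Neo and −5.48, −4.78 and −2.27 in MR 4-25. The highest array of each line was the one on slide 2. The difference of 0.90 ± 1.08 (SE, limma adjusted p = 0.789) was the largest and least certain of the 40 genes, and was −0.05 without MR 4-25 replicate 3.

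Taken by particle, the 17 genes of the 19S that the name rule takes had a median of −0.13 with 15 negative. The 15 of the 20S core had a median of 0.09 with 6 negative. Without Psma8, whose signal was near background, the 20S median was 0.05, with 6 of 14 negative. The difference between the particles was not tested. Without MR 4-25 replicate 1 the 19S median was −0.01 with 10 of 17 negative, and without MR 4-25 replicate 3 the 20S median was −0.00 with 8 of 15 negative. With normexp background correction both medians were below 0, at −0.34 and −0.14, while the median of all genes under that setting was 0.34.

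**Figure D3:**
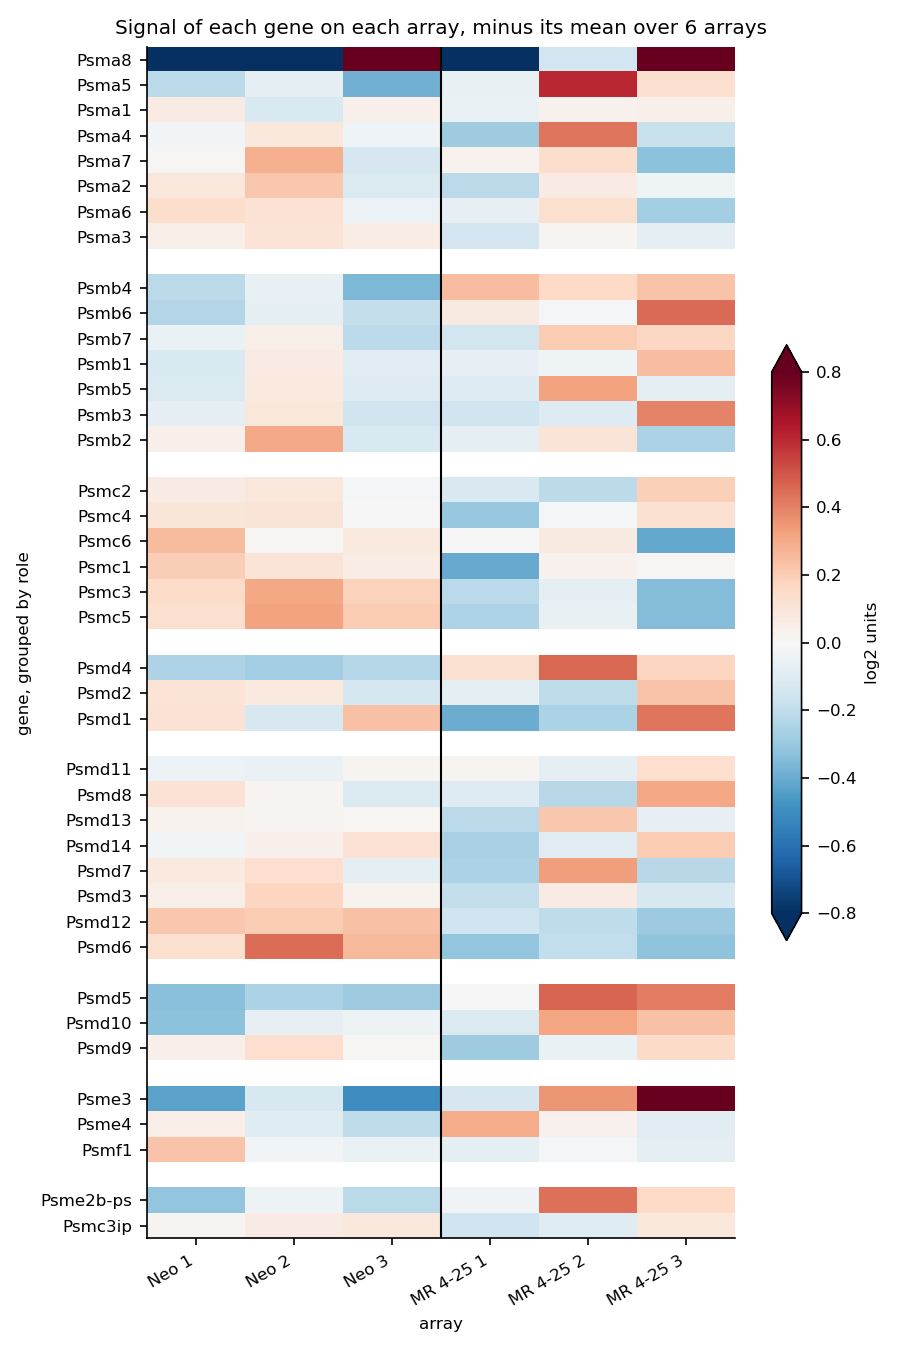
Log2 signal of each of the 40 genes (rows, grouped by role) on each array (columns), as the departure from the gene's mean over 6 arrays, with the colour scale cut at 0.8 in either direction. The ATPase rows Psmc3 and Psmc5 and the lid rows Psmd12 and Psmd6 are above their mean on all Neo arrays and below it on all MR 4-25 arrays, and Psmb4 and Psmd4 show the opposite.

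The chaperones Psmd5, Psmd9 and Psmd10 hold ATPase subunits while the base of the 19S is built and leave the finished particle. Psmd5 had the largest positive difference of those at an unadjusted p under 0.05. It gave 3.67, 3.75 and 3.72 in Neo and 4.00, 4.46 and 4.41 in MR 4-25. Every MR 4-25 array was above every Neo array, by 0.58 ± 0.18 (SE, 95% interval 0.13 to 1.04, limma adjusted p = 0.259), with 0.53 and 0.69 on the slides. Psmd10, an ankyrin repeat protein also called gankyrin, differed by 0.29 ± 0.19 (SE) with overlapping lines. Psmd9 was 1.04, 1.13 and 1.01 in Neo and 0.71, 0.95 and 1.15 in MR 4-25, with −0.12 ± 0.17 (SE).

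The chaperones of the 20S core, which the array lists under older names, had negative differences. Psmg1, which pairs with Psmg2 to assemble the alpha ring, gave 3.06, 3.29 and 2.97 in Neo and 2.51, 2.65 and 2.16 in MR 4-25, with a difference of −0.67 ± 0.20 (SE, limma adjusted p = 0.245). Psmg2 gave 3.82, 3.91 and 3.77 against 3.39, 3.43 and 3.23, and differed by −0.49 ± 0.14 (SE, limma adjusted p = 0.243). Psmg3 differed by −0.48 ± 0.22 (SE, limma adjusted p = 0.452). Slide 1 gave −0.68 and slide 2 gave −0.09. The lines did not overlap for any of the 3, and 0 of 3 passed the test. Lower without overlap were 13.1% of all genes and 1107 of the 5335 in the brightest 25%, where all 3 lie. Counted with Psmg1, Psmg2 and Psmg3, the chaperones had a median of −0.30, against 0.29 for the 3 that the name rule takes. Psmb11, the beta subunit of cortical thymic epithelium, was near background, with −1.32 ± 1.09 (SE).

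Of the alternative caps, Psme3 (PA28 gamma, a nuclear activator) had the largest difference. Neo gave 2.81, 3.11 and 2.74 and MR 4-25 gave 3.1001, 3.59 and 4.07. The lines overlapped by a small margin, since MR 4-25 1 lay just below Neo 2. The difference of 0.70 ± 0.29 (SE, limma adjusted p = 0.400) split into 0.39 (slide 1) and 1.33 (slide 2). Psme4 (PA200, the activator that binds acetylated histones) differed by 0.16 ± 0.17 (SE), while its dimmer probes gave 0.45 ± 0.17 and −0.14 ± 0.41 (SE).

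Psmf1, the inhibitor PI31, was 1.36, 1.11 and 1.08 in Neo and 1.06, 1.12 and 1.06 in MR 4-25 on its brightest probe, with −0.10 ± 0.15 (SE) and overlapping lines. Its other probes were lower in every MR 4-25 array than in any Neo array, at −0.72 ± 0.21 and −0.998 ± 0.34 (SE), and neither passed over all probes (limma adjusted p = 0.217 and 0.287). The difference between the probes was not tested.

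Psme2b-ps, named Psme2 by the RefSeq table, gave 5.62, 5.90 and 5.73 in Neo and 5.91, 6.38 and 6.10 in MR 4-25. The lines were apart by a narrow margin, with a difference of 0.38 ± 0.19 (SE, limma adjusted p = 0.486). Psmc3ip was 2.77, 2.81 and 2.83 in Neo and 2.59, 2.65 and 2.84 in MR 4-25, so the lines overlapped, with −0.11 ± 0.15 (SE).

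Of the 40 genes, 16 had more than 1 probe above the filter. The probes of 12 gave the same sign, and those of Psmd4, Psmd9, Psme4 and Psmc3ip did not. With every probe tested on its own, 0 of 60 passed.

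The 3 proteasome genes on chromosome 3, Psma5, Psmb4 and Psmd4, were all positive and all without overlap between lines, a grouping noticed after their values were seen. Their median was 0.45, against −0.09 for the 37 genes elsewhere. The 982 genes tested on chromosome 3 had a median of 0.26, the highest of 20 chromosomes, with 66.9% of them positive, and all genes elsewhere had a median of −0.00. Positive without overlap were 250 of the 982 genes on chromosome 3, against 11.2% of all genes and 3 of the 37 proteasome genes elsewhere. The chromosome 3 median was 0.14 on slide 1 and 0.43 on slide 2. Psmb4 and Psmd4 lie 149 kb apart by their probes; within 1 Mb of them 40 of 62 genes were positive (median 0.23), and within 1 Mb of Psma5 36 of 51 were (median 0.35).

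**Figure D4:**
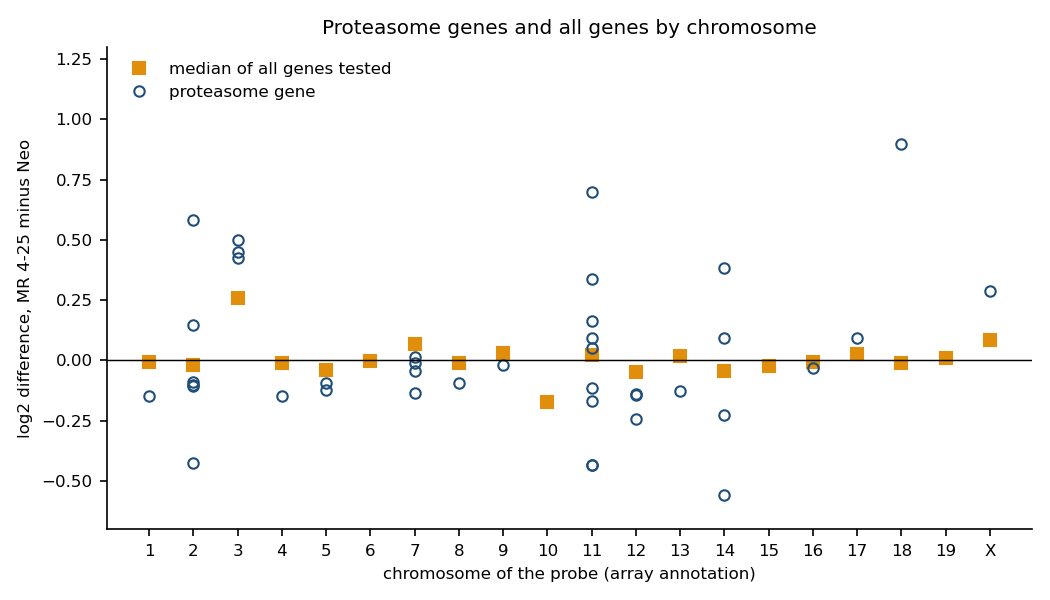
Log2 difference, MR 4-25 minus Neo (y axis), of the proteasome genes (circles) and the median of all genes tested (squares) on each chromosome of the array's annotation (x axis). The 3 genes of chromosome 3 lie at 0.42 to 0.50, above the chromosome's median of 0.26, which is the highest of the medians.

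Among genes that work with the proteasome, 33 of 35 listed were tested and 0 passed in either direction. Their median was −0.05, with 16 positive and 17 negative. At an unadjusted p under 0.05 (limma), 2 of the 33 were positive and 1 negative, against 5.92% and 7.33% of all genes. Nfe2l1, the factor that induces subunit genes, gave 3.88, 3.94 and 3.84 in Neo and 5.11, 4.60 and 4.58 in MR 4-25. All MR 4-25 arrays were above all Neo arrays, by 0.87 ± 0.20 (SE, limma adjusted p = 0.157), with 0.94 and 0.73 on the slides. Ddi2, the protease that cleaves and so activates the Nfe2l1 protein, differed by −0.46 ± 0.16 (SE, limma adjusted p = 0.295), and the related factor Nfe2l2 by 0.02 ± 0.15 (SE). Nploc4, a cofactor of the segregase Vcp, differed by 0.76 ± 0.18 (SE, limma adjusted p = 0.172).

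Among proteins that bind the particle directly, the ubiquitin receptor Adrm1 differed by −0.27 ± 0.24, and the deubiquitinases Uchl5 and Usp14 by −0.38 ± 0.19 and −0.14 ± 0.21 (SE, n = 3 per line). Uchl5 was the one of these whose lines did not overlap, lower in MR 4-25. Pomp, which matures the 20S core, differed by 0.12 ± 0.18 (SE).

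In the immunoproteasome, Psmb9 stood at 4.22, 4.41 and 3.98 in Neo and at 5.30, 5.67 and 5.65 in MR 4-25, a difference of 1.34 ± 0.20 (SE) that did not pass (limma adjusted p = 0.0566). Psmb8, Psme1 and Psmb10 differed by 0.36, 0.32 and −0.42 (limma adjusted p = 0.601, 0.494 and 0.487). The counterpart of Psmb9 in the constitutive core, Psmb6, is described above at 0.34.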

How the data were processed

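The authors deposited scanner output whose Cy3 intensity had been corrected for background. Per the file headers the software was Agilent Feature Extraction 9.5.3.1, which the submitters' processing notes give as 9.5. The series' own processed values equalled this signal at 100% of probes. Probe positions are on mm7.

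Control spots (1639) were left out, outlier spots masked, and log2 signals of a probe's spots averaged, which gave 41174 probes; 34 were fully masked on an array. Each array was scaled by subtracting log2 of its 75th percentile (gene spots). Of these, 30965 probes were kept, each above background by the scanner software on 3 or more of 6 arrays. Names came from the RefSeq table by accession (23082 probes) or synonym (3069), 6582 were current and 8441 were kept as in the file. Lines were compared over 21339 genes with limma 3.58.1 (R 4.3.3; lmFit, eBayes, Benjamini-Hochberg, adjusted p of 0.05). The test was also run on simulated data, with noise drawn independently for each array and equal in size across arrays. Deviations shared within a slide and arrays of unequal quality were not simulated. The R packages data.table (version 1.17.8) and jsonlite 2.0.0, with Python 3.11.15, pandas 2.3.3 and matplotlib 3.10.9 were used.

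Genes were named with array values where they had the largest positive or negative difference of their role, or where no role was assigned to them. Others were named after their values were seen. The genes and lists were chosen with earlier results of these data known. Same-numbered arrays, across genes, had deviations that correlated at 0.29, 0.21 and 0.56. Crossed arrays of slide 1 gave 0.38 and 0.41, so within that slide the values do not single out pairs by number. The numbers were treated as pairs in an alternative.

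Alternatives were array quality weights, a robust fit with an intensity trend, blocks for slide or for replicate number, slide 1 alone, each array left out, normexp (offset 50), quantile normalization, both, median scaling, the deposited values, reference names throughout, probes averaged or kept apart, and the background filter dropped or extended to all 6 arrays. Leaving out Psmc3ip and Psme2b-ps, leaving out chromosome 3, and subtracting the median over all genes were added after the data were seen.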

Additional observations from a re-analysis of the deposited data

How the results depend on the processing

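The count of proteasome genes past the test was 0 under every alternative run except array quality weights, which gave 3: Psmd4 (0.65, limma adjusted p = 0.0317), Psmd5 (0.69, adjusted p = 0.0408) and Psmd12 (−0.41, adjusted p = 0.0428). Those weights were 0.133 for MR 4-25 3 and 0.386 for Neo 3 against 4.73 for MR 4-25 2, and they gave 2014 calls over all genes in place of 263. Over all genes the other counts were 523 with a filter on all 6 arrays, 717 with an intensity trend and robust fit, 502 with normexp and quantile, 77 with normexp, 124 within slide 1 and 1 with the replicate block; leaving out 1 array gave 0 to 223 calls, with 0 without Neo 1, 0 without Neo 2, 36 without Neo 3, 9 without MR 4-25 1 and 6 without MR 4-25 2. With the replicate number as a block 0 of 40 proteasome genes passed, and the block changed no other call among them. Leaving out 1 array gave 0 to 0 calls among the 40.

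The median over the proteasome genes was −0.22 with normexp, where all genes had 0.34, and −0.07 to 0.01 when 1 array was left out. In the list of genes around the proteasome, 2 passed with array quality weights and 2 with the intensity trend and robust fit. Signs reversed for Psma8 without MR 4-25 replicate 3 (−0.0521, in a range of −0.0521 to 1.63 over the arrays left out), Psmd1 without MR 4-25 replicate 1 (0.0145, range −0.397 to 0.0145) and Psmd11 with array quality weights (−0.0170), with normexp (−0.105) and without MR 4-25 replicate 3 (−0.00436, range −0.00436 to 0.102). Of 397 values for 19 named genes, 389 kept their direction and side of the threshold. Several settings, among them the blocks, the robust fit and the deposited values, repeated the main differences and could not change a sign. The count of 389 is therefore no measure of stability. The cause of the changes of sign or call was not tested. With the settings of the report, the smallest difference past the test over all genes was 1.01.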
